A study of Danio rerio with 3 samples.

Results

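Cluster 0 is a group of cells of the adult zebrafish heart that carry endothelial markers, and its cells from 7 days after injury were set against those from uninjured hearts. The cells were taken by the cluster number that the submitters gave each cell at their finer clustering resolution (0.4). Of the 754 cells of the series, 265 were used, 72 from the day 0 library and 193 from the day 7 library. A further 16 cells of cluster 0 came from day 3 and are given only as levels. Cluster 0 held 26.5% of the day 0 cells (72 of 272, exact 95% interval 21.3 to 32.1) and 52.4% of the day 7 cells (193 of 368, 47.2 to 57.6). Taking 1 cluster keeps the deposited cluster number the same on both days. It does not show that the endothelial state was the same.

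The series profiled RNA of single heart cells in droplets (10x Chromium), from hearts without injury and from hearts 3 and 7 days past it, in a study of mTOR activity and amino acids in heart regeneration. Both groups came from adult fish of strain AB, 5 to 12 months old. Each day had 1 library made from 6 hearts (3 males and 3 females), which were digested as 2 sets of 3 hearts and pooled, and 2600 cells were loaded. Day 7 hearts came from fish that had spent 48 hours in 5 mM metronidazole with 0.1% DMSO. Day 0 hearts were collected before metronidazole. Metronidazole kills cells that make a bacterial nitroreductase. Among the lines kept by the submitters is one with the nitroreductase gene fused to mCherry under the promoter of the ventricular myosin gene vmhc, so only ventricular muscle would make it. The labels do not say which line gave these libraries. Injury, drug and library therefore cannot be told apart, and there is no replicate. Values are described without tests, and the intervals allow for counting error alone.

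The endocardium is the endothelial sheet that lines the heart chambers, and coronary endothelium lines the vessels of the heart wall. After muscle loss in zebrafish, endocardium and epicardium are known to switch on signals that act on the surviving muscle, among them retinoic acid. Endothelial cells also respond to flow through factors such as klf2a, regulate clotting and vessel tone through secreted proteins, and can display antigen.

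Cluster 0 carried endothelial markers on both days. Of 24 endothelial markers in the table, 19 had a UMI (1 counted RNA molecule) at day 0 and 22 at day 7. Counts of detected markers rest on 195062 UMIs in all at day 0 and 690373 at day 7. The adhesion gene cdh5, which defines endothelium, stood at 246 and 240.4 UMIs per 1000000 UMIs (CPM), and the endothelial transcription factor genes erg at 118 and 113 and fli1a at 51.3 and 57.9. Other markers differed more: egfl7 was lower, at 354 and 194 CPM (0.549-fold, 0.407 to 0.745), as was ecscr, at 92.3 and 37.7, while clec14a stood at 123 and 141. Per cell, endothelial markers made up a median of 0.53% of UMIs at day 0 and 0.291% at day 7, and 167 of 193 day 7 cells lay below the day 0 median. The summed endothelial level was 8110.2 CPM at day 0 and 3369 at day 7. Most of that gap lay in aqp8a.1, a water channel gene, at 4988 and 1622 CPM, and in vwf, a clotting factor gene, at 1282 and 232. At day 0, 1 cell held 107 of the 250 vwf UMIs. The log2 ratio of vwf was -2.42, and -1.79 without the richest cell, while the share of cells with it was 23.6% at day 0 and 33.2% at day 7. Endocardial markers summed to 6034 and 3249 CPM, chiefly through spock3, while the defining gene nfatc1 had 1 and 5 UMIs. Cardiomyocyte markers summed to 45196 CPM at day 0 and 26305 at day 7. The myoglobin gene mb gave much of this, and without it the sums were 20665 and 12453 CPM, against 157859 and 138922 in cluster 5, which carries cardiomyocyte markers. Of 23 cardiomyocyte markers, 17 had a UMI at day 0 and 18 at day 7. Whether muscle RNA in these cells came from free RNA, from joined cells or from the cells themselves was not tested.

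The 72 day 0 cells held 195062 UMIs and the 193 day 7 cells 690373, so 1 UMI was worth 5.13 CPM at day 0 and 1.45 CPM at day 7. Median UMIs per cell were 2323 (range 2016 to 6074) and 2976 (2040 to 14134). No cell barcode was shared between the day 0 and day 7 cells of cluster 0. At each day 1 cell was rich in globin RNA, with 79.9% and 34.4% of its UMIs from erythroid markers.

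Of 10606 genes with a UMI in these cells, 1362 had a mean level of at least 40 CPM over both days and are called measured. On the log2 scale with 10 CPM added to both levels, 163 measured genes (12%) were higher at day 7 by 2-fold or more and 203 (14.9%) were lower. The median log2 ratio of all measured genes was -0.17, with 41.3% above 0 and 58.7% below 0, and gene groups are read against these values. Many large ratios rested on 1 cell. A gene is called spread when, on the day of its higher level, at least 10% of the cells had a UMI of it and no cell held over 25% of its UMIs. Among the 989 spread genes 37 were higher and 116 lower by 2-fold. Spread was judged in 193 day 7 cells for higher genes and in 72 day 0 cells for lower ones. These counts therefore rest on unlike numbers of cells. Leaving out the richest cell of each gene on each day gave 56 higher and 95 lower genes.

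**Figure D1:**
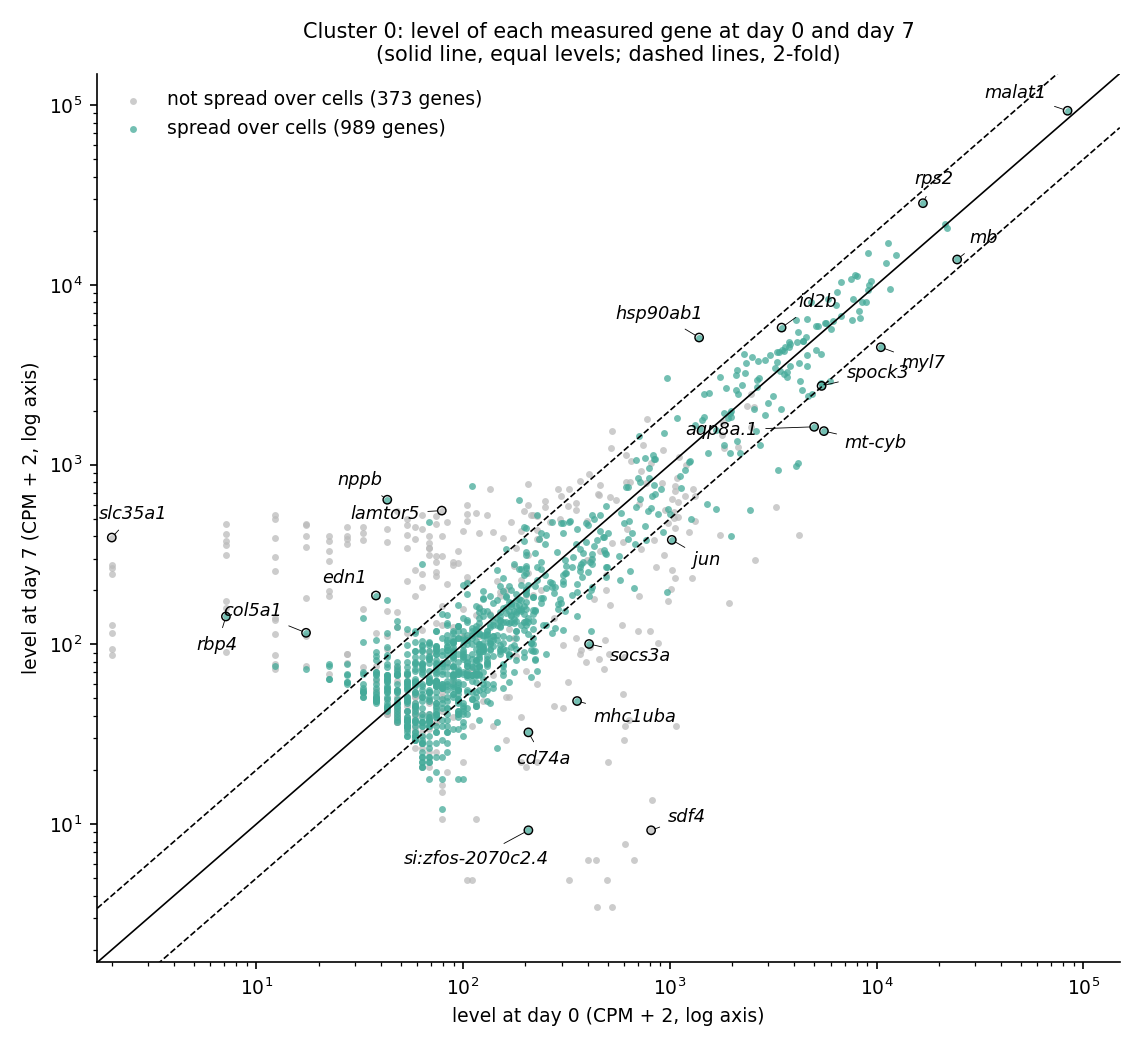
Level of each of the 1362 measured genes in cluster 0 at day 0 (x axis) and day 7 (y axis), in CPM plus 2 on log axes. Spread genes are green and the others grey. The solid line marks equal levels and the dashed lines 2-fold. The nppb and edn1 points lie above the upper dashed line, and mhc1uba, cd74a and the mitochondrial gene mt-cyb below the lower one. Many grey points far from the line rest on 1 cell.

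Genes of secreted signals were among the highest at day 7. The natriuretic peptide gene nppb, whose product lowers blood pressure and marks strain of the heart, stood at 41 CPM (17.7 to 80.8) at day 0 and 636 CPM (578 to 698) at day 7. That is 15.5-fold higher (7.8 to 36.1). The few cells with many nppb UMIs all belonged to day 7: 16 of 193 cells had 5 or more against 0 of 72 at day 0, and the richest cell held 108 of 439 UMIs. A further 29 day 7 cells and 2 day 0 cells had 1 UMI. These counts were made without thinning. With each cell thinned to 2000 UMIs, 23.3% of day 7 cells (17.5 to 29.9) and 4.17% of day 0 cells (0.868 to 11.7) had a UMI. In cluster 1, whose cells carry mural markers and whose median UMI counts were 2950.5 and 2770.0, the thinned shares were 1.14% and 6.56%. Cluster 5 had nppb at 84.6 CPM at day 0 and 787 at day 7, from 4 and 81 UMIs. The part of free RNA in the nppb level of cluster 0 was not tested. The 16 cells of cluster 0 at day 3 had 1788 CPM. The related nppa had 1 UMI at day 0 and 0 at day 7, so no ratio is given.

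The endothelin gene edn1, which encodes a peptide that constricts vessels, stood at 35.9 CPM (14.4 to 73.9) and 185 CPM (155 to 220.4), 5.17-fold higher (2.44 to 13.1). Only 1 of 88 cells of cluster 1 at day 0 and 0 of 61 at day 7 had an edn1 UMI after thinning, so it was near the detection limit there.

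The retinol carrier gene rbp4 had 1 UMI at day 0 and 97 at day 7, or 5.13 and 141 CPM, and the counting interval of the ratio runs from 4.8 to 1094. In cluster 1 rbp4 stood at 1775 CPM at day 0 and 11306 at day 7, so its level was also higher there and far above that of cluster 0. Most day 7 cells of cluster 0 with rbp4 had 1 UMI (43 cells), and only 1 cell had 5 or more. Whether this is free RNA was not tested. The gene of the retinoic acid making enzyme aldh1a2 stood at 154 and 232 CPM (1.51-fold, 1.02 to 2.31), with 25% of its day 7 UMIs in 1 cell. Its share of cells was 30.6% at day 0 and 25.4% at day 7 without thinning, and its log2 ratio of 0.56 was -0.09 with day 7 cells paired to day 0 cells by UMI count. Of the 8 measured genes in the list of secreted ligands and retinoid genes, 6 were higher and 2 lower, 2 higher and 1 lower by 2-fold (median log2 ratio 0.15). The coagulation inhibitor gene tfpia, at 282 and 326 CPM, differed by 1.16-fold (0.857 to 1.58).

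**Figure D2:**
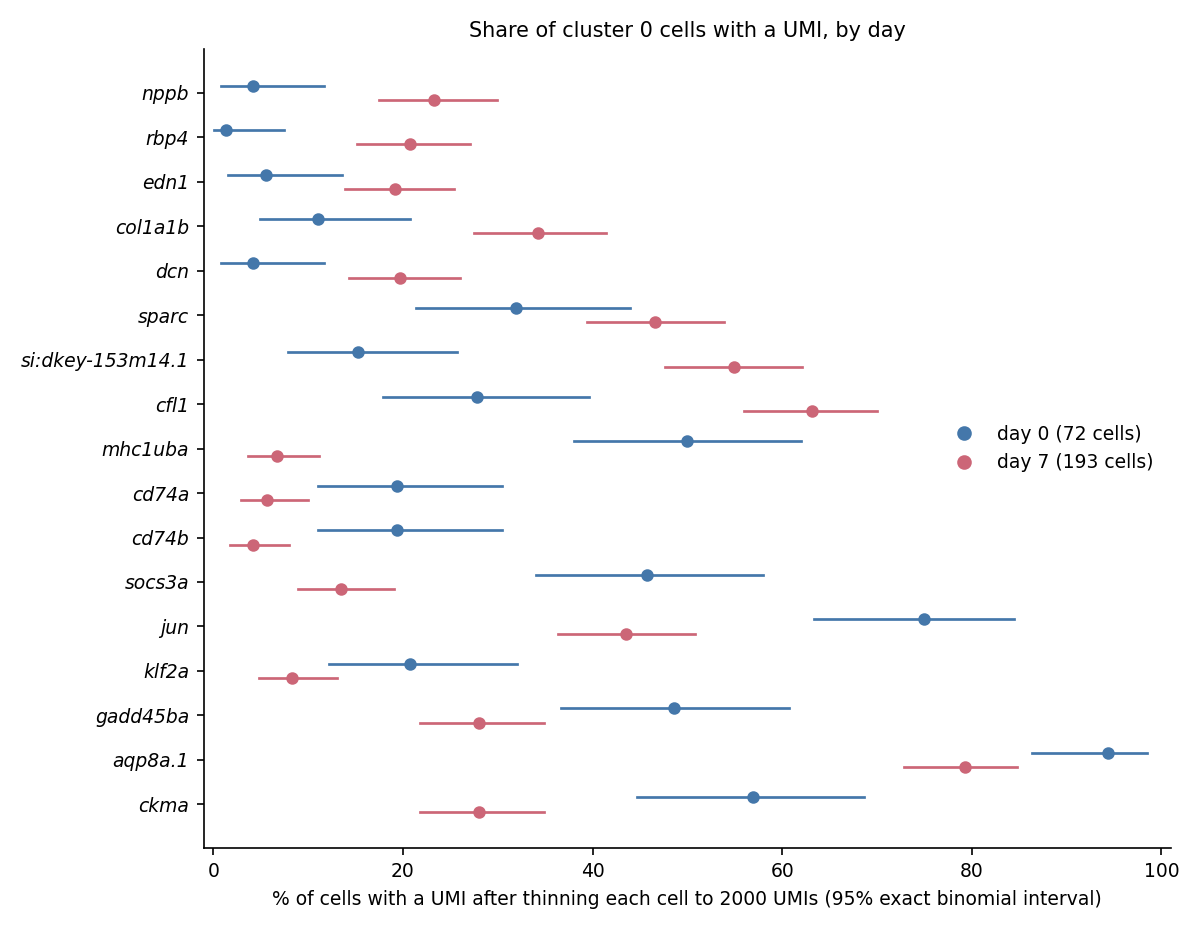
Share of cluster 0 cells with at least 1 UMI of each gene after each cell was thinned to 2000 UMIs, with exact 95% binomial intervals, at day 0 (blue, 72 cells) and day 7 (red, 193 cells). For nppb the share is 4.17% and 23.3%, and for mhc1uba 50% and 6.74%. The intervals allow for counting error within 1 library per day, so they are not a test of the difference between days.

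Collagen genes were higher at day 7. All 6 measured members of the collagen list were above their day 0 level, 3 of them by 2-fold, and their median log2 ratio was 1.06. The collagen I chain gene col1a1b stood at 61.5 CPM (31.8 to 107) and 278 CPM (240.2 to 320.4), 4.52-fold higher (2.53 to 8.9). The thinned share of cells with it was 11.1% and 34.2%. The collagen V gene col5a1 had 3 UMIs at day 0 and 79 at day 7 (7.44-fold, 2.45 to 36.8). The third gene past 2-fold, col1a1a, stood at 138 and 419 CPM but was not spread, with 119 of its 289 day 7 UMIs in 1 cell. Its log2 ratio of 1.53 was 1.06 without the richest cell. The gene col1a2 stood at 123 and 179.6 CPM. Its log2 ratio of 0.51 was -0.00 with day 7 cells paired to day 0 cells by UMI count. The collagen IV genes of basement membrane, col4a1 at 108 and 116 CPM and col4a2 at 61.5 and 97, differed less. Of 12 other matrix genes 8 were higher and 4 lower (median 0.27). The small proteoglycan gene dcn stood at 30.8 and 138 CPM (4.47-fold, 1.98 to 12.5), and sparc, whose product binds collagen, at 199.9 and 440.3 CPM (2.2-fold, 1.57 to 3.16). The collagen chaperone gene serpinh1b went the other way, at 210.2 and 99.9 CPM, as did the endocardial proteoglycan gene spock3, at 5419 and 2741 CPM.

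Markers of fibroblasts moved with this group. Their sum was 508 CPM at day 0 and 1422 at day 7, with 12 and 17 of 20 markers detected from 195062 and 690373 UMIs in all. The sum holds dcn and collagen genes of the list above. Among its other members the periostin genes, which encode matrix proteins, were higher at day 7, postnb with 0 and 36 UMIs (31 day 7 cells) and postna with 1 and 33, and lum had 0 on both days. A second list of 13 fibroblast markers without collagen genes, dcn or the periostin genes summed to 103 and 133 CPM. Of these sums mfap5 alone held 66.6 and 44.9 CPM. Cluster 4, which carries fibroblast markers and had 0 cells at day 0 and 53 at day 7, had a fibroblast sum of 23047 CPM, with col1a1b at 4714 and dcn at 1874. The second list summed to 1969.6 CPM there and to 2273 and 1835 CPM in cluster 1, so it does not set fibroblasts apart from cells with mural markers. In cells without a UMI of those 13 markers (57 and 139 cells) the collagen median was 0.54. In cluster 1 of the same libraries only 1 of the 6 collagen genes was higher at day 7 (median -0.73), with col1a1b at 113 CPM on both days. The part of free fibroblast RNA in the collagen levels was not tested.

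Antigen presentation genes split by gene. The MHC class I gene mhc1uba, of a lineage whose gene content differs between zebrafish haplotypes, stood at 354 CPM (275 to 448) at day 0 and 46.4 CPM (31.7 to 65.4) at day 7, 7.63-fold lower (4.95 to 12). Its thinned share of cells was 50% (38 to 62) at day 0 and 6.74% (3.63 to 11.2) at day 7. In cluster 1 mhc1uba was lower as well, at 189 and 14.2 CPM. The MHC class II invariant chain genes cd74a and cd74b, which guide class II molecules to the compartment where antigen is loaded, stood at 205 and 30.4 CPM (6.74-fold lower, 3.88 to 12) and at 144 and 24.6 CPM (5.83-fold lower, 3.08 to 11.4). In cluster 1 cd74a was at 16.6 and 23.6 CPM, from 5 UMIs on each day, and cd74b at 29.9 and 9.43 CPM, from 9 and 2 UMIs. In cluster 5 cd74a had 1 UMI on each day and cd74b had 8 and 0. The class I gene mhc1zba was lower by less, at 759 and 453 CPM (1.67-fold, 1.37 to 2.04), and b2m, the light chain of class I, stood at 1835 and 1285 CPM. Of 8 measured members 3 were higher and 5 lower, and 3 were lower by 2-fold (median -0.62). Macrophage markers summed to 379 and 101 CPM, a list that holds cd74a and cd74b. These had 40 and 28 of its 74 UMIs at day 0, and 21 and 17 of its 70 UMIs at day 7. At day 7, 11 of 20 markers were detected against 5 at day 0, from 690373 UMIs in all against 195062. Of those detected at day 7, csf1ra, marco, spi1a, spi1b, c1qa and c1qb had 1 UMI each. The granulin gene grn1 had 1 and 18 UMIs, or 5.13 and 26.1 CPM (interval of the ratio 0.803 to 212). The gene fcer1gl had 0 and 6 UMIs, or 0 and 8.69 CPM (interval from 0.333). The defining macrophage genes mpeg1.1, mpeg1.2 and csf1rb had 0 UMIs on both days, and csf1ra had 0 and 1. The part of macrophage RNA in the cd74a and cd74b levels was not tested. Lowest in ratio among all spread genes was si:zfos-2070c2.4, a gene without a known function, with 205 and 7.24 CPM (28.3-fold lower, 11.2 to 91.9).

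Immediate early and stress response genes were mostly lower at day 7. Of 22 measured members 17 were lower and 5 higher, 8 lower and 0 higher by 2-fold, with a median of -0.77. Those lower included jun, a subunit of the AP-1 transcription factor, at 1020.2 and 379.5 CPM (2.69-fold, 2.22 to 3.24), its partner gene fosab at 2743 and 1292, and socs3a, an inhibitor of cytokine signalling, at 405 and 98.5 CPM (4.11-fold, 2.94 to 5.77). The DNA damage response gene gadd45ba stood at 641 and 255 CPM (2.51-fold, 1.98 to 3.18). Higher were junbb, at 174 and 278 CPM, and socs3b, at 35.9 and 79.7. Per cell, these genes made up a median of 0.756% of UMIs at day 0 and 0.431% at day 7, and 158 of 193 day 7 cells lay below the day 0 median. In cluster 1 the same 22 genes had 12 higher and 10 lower members (median 0.22), and in cluster 5 also 12 and 10 (median 0.21). Single genes could still be lower there. The thinned share of cells with jun was 51.1% and 31.1% in cluster 1 and 44.4% and 23.3% in cluster 5. For socs3a it was 19.3% and 18% in cluster 1 and 33.3% and 6.67% in cluster 5. Dissociation of tissue is known to induce genes of this kind, and its part was not tested.

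Flow and vessel growth genes had 10 of 13 measured members lower (median -0.41). The flow-responsive factor gene klf2a stood at 154 and 55 CPM (2.79-fold lower, 1.67 to 4.63) and the caveola gene cav2 at 195 and 88.4 CPM (2.2-fold, 1.43 to 3.36). The VEGF receptor gene kdrl stood at 189.7 and 155 CPM, but 1 day 7 cell held 45 of its 107 UMIs. Its log2 ratio was -0.28, and -0.88 without the richest cell, and its thinned share of cells was 30.6% at day 0 and 14% at day 7. The 3 higher members were edn1, tek and igf2b. The angiopoietin receptor gene tek stood at 35.9 and 68.1 CPM from 7 and 47 UMIs (1.9-fold, 0.852 to 4.97). The insulin-like growth factor gene igf2b had 8 and 57 UMIs (2.01-fold, 0.956 to 4.89). Among Notch genes, the repressor gene her6, a target of Notch signalling, stood at 405 and 184 CPM (2.2-fold lower, 1.64 to 2.94) and her9 at 66.6 and 37.7. In the 11 and 109 cells with under 2% of UMIs from cardiomyocyte markers, the log2 ratio of her6 was 4.32, of opposite sign. The 11 day 0 cells hold few UMIs, so 1 UMI weighs more there than over all day 0 cells. Of the 6 measured Notch genes 4 were lower and 2 higher, and the higher ones, dll4 and her4.1, were not spread. The BMP target gene id2b, an inhibitor of differentiation factors, stood at 3471 and 5787 CPM (1.67-fold higher, 1.54 to 1.81), and 7 of 9 measured genes of TGF-beta and BMP signalling and their Id targets were higher (median 0.27).

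All 13 genes of the mitochondrial genome were lower at day 7, each by 2-fold or more, with a median log2 ratio of -1.83. They encode subunits of the respiratory chain and of ATP synthase. Their summed level was 24741 CPM at day 0 and 6462 at day 7. The cytochrome b gene mt-cyb stood at 5562 and 1535 CPM (3.62-fold lower, 3.33 to 3.95) and the complex I gene mt-nd2 at 1979 and 401 CPM (4.93-fold, 4.22 to 5.78). In single cells the mitochondrial share of UMIs was 2% in the median day 0 cell (1.18 to 13.1) and 0.592% in the median day 7 cell (0.175 to 2.78), and 182 of 193 day 7 cells lay below the lowest day 0 cell. The same direction was found in other cells. In cluster 1 the medians were 1.97% and 0.592%, and in cluster 5 they were 5.35% and 1.28%, with 13 of 13 genes lower in each. Mitochondrial RNA therefore moved with the library in clusters 0, 1 and 5, and RNA quality, capture and injury cannot be told apart.

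Nuclear genes of the respiratory chain and ATP synthase did not follow. Of 74 measured, 34 were higher and 40 lower (median -0.08), 7 higher and 10 lower by 2-fold. Lower ones included ndufa4 at 226 and 69.5 CPM (3.24-fold, 2.11 to 4.99), ndufa1 at 220.4 and 81.1 and uqcrq at 174 and 68.1, while ndufb2 stood at 41 and 94.2. In the 11 and 109 cells with few cardiomyocyte UMIs, where 1 UMI weighs more, ndufa1 had a log2 ratio of 0.94, of opposite sign. Their summed level was 21952 CPM at day 0 and 20695 at day 7.

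**Figure D3:**
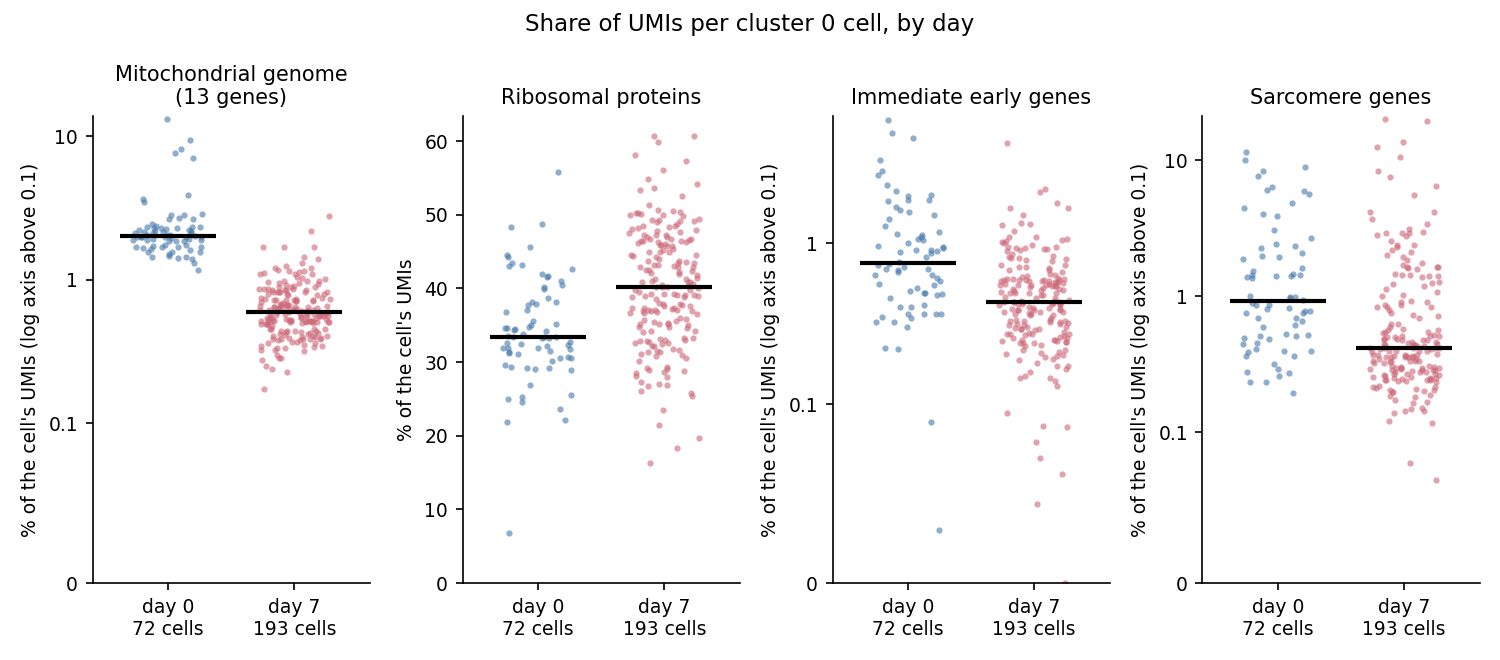
Percent of a cell's UMIs from 4 gene groups in each cluster 0 cell at day 0 (blue, 72 cells) and day 7 (red, 193 cells). Bars mark medians and the vertical axes are logarithmic above 0.1 except for ribosomal proteins. The mitochondrial shares of the days barely overlap (medians 2 and 0.592), and the ribosomal shares overlap widely (33.4 and 40.2).

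Muscle transcripts in cluster 0 were lower at day 7. Of 12 measured sarcomere genes 11 were lower, 4 by 2-fold, with a median of -0.58. The myosin light chain gene myl7 stood at 10484 and 4500.5 CPM (2.33-fold lower, 2.2 to 2.46), and the crosslinker gene actn2b at 92.3 and 15.9. The creatine kinase gene ckma, which buffers ATP in muscle and belongs to the muscle energy list, stood at 672 and 204 CPM (3.29-fold lower, 2.57 to 4.2). Tropomyosin gene tpm4a was higher, at 1461 and 1839.6 CPM. In cluster 5, myl7 was at 66585 and 44419 CPM, but the same 12 genes had 6 higher and 6 lower members there (median -0.17). In cluster 1 they had 8 higher and 4 lower (median 0.51), with sums of 4796 and 6316 CPM. The sarcomere share was 0.914% in the median day 0 cell and 0.416% in the median day 7 cell, with wide overlap. In cells with under 2% of UMIs from cardiomyocyte markers (11 and 109 cells) the sarcomere median was 0.16, above 0. There mb, described next, had a log2 ratio of 0.43. Both mb and sarcomere genes such as myl7 and tpm4a are among the markers that chose these cells, so neither value is independent of that choice.

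Myoglobin differed from the sarcomere genes in where it was found. The gene mb, which encodes an oxygen-binding protein, stood in cluster 0 at 24531 CPM (23840.5 to 25236) at day 0 and 13852 CPM (13576 to 14132) at day 7, 1.77-fold lower (1.71 to 1.83). In cluster 5 it stood at 23759 and 7609 CPM and in cluster 1 at 1619 and 665 CPM. Thus mb was near the level of cluster 5 at day 0 and above it at day 7, while myl7 in cluster 0 was far below cluster 5 on both days. The fatty acid carrier gene fabp11a was at 21788 and 20631 CPM, 0.947 times the day 0 level (0.915 to 0.98), and at 887 and 665 CPM in cluster 1.

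Ribosomal protein genes were somewhat higher. Of 77 measured, 51 were higher and 26 lower, but 1 was higher and 0 lower by 2-fold, and the median was 0.17. Together they took 35% of all UMIs at day 0 and 41% at day 7. The largest differences in CPM included rps2 at 16759 and 28496 (1.7-fold, 1.64 to 1.77) and rpl32 at 9074 and 15008, while rps29 stood at 3429.7 and 2048 and rpl38 at 2615 and 1538. The median was 0.1 with cardiomyocyte, mitochondrial and erythroid genes taken out of the total and 0.02 in 72 day 7 cells paired by UMI count to the day 0 cells. In cluster 1 the same genes had 55 of 77 members lower (median -0.24). Translation factors had 20 of 35 higher (median 0.16), with eif3f at 1466 and 2462 CPM and the nascent chain gene btf3 at 4891 and 2483.

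The cytosolic chaperone gene hsp90ab1 stood at 1384 CPM (1224 to 1559.5) and 5096 CPM (4929 to 5267), 3.68-fold higher (3.25 to 4.18). After thinning it had a UMI in 90.3% of day 0 cells and in every one of 193 day 7 cells. The constitutive hspa8 stood at 707 and 1439.8 CPM (2.04-fold, 1.7 to 2.45). The stress-induced hsp70.1 was lower, at 928 and 419 CPM (2.22-fold, 1.83 to 2.68). In cluster 1 hsp90ab1 stood at 1718 and 2571 CPM and hsp70.1 at 1097 and 2094, higher at day 7 there. Of 19 measured chaperone genes 7 were higher and 12 lower (median -0.40). Proteasome genes had 8 of 15 higher and 7 lower (median 0.27), led among the spread ones by psma1 at 103 and 217 CPM (2.12-fold, 1.32 to 3.57). Lysosome and autophagy genes had 12 of 14 lower (median -0.49), among them the proton pump subunit gene atp6v0ca at 128 and 46.4 CPM and the autophagosome gene map1lc3a at 267 and 113. The log2 ratio of map1lc3a was 0.39, of opposite sign, in the 11 and 109 cells with few cardiomyocyte UMIs, where 1 UMI weighs more.

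Genes of the mTORC1 pathway, the subject of the study, were sparse. mTORC1 is a kinase complex that promotes protein synthesis when amino acids are at hand. Of 11 measured genes of the mTORC1 pathway list 3 were higher and 8 lower, 2 higher and 2 lower by 2-fold (median -0.54), and the list holds activators and inhibitors of the kinase complex together. The translation repressor gene eif4ebp1 stood at 302 and 222 CPM (0.733-fold, 0.539 to 1.01). The sestrin genes, whose products hold mTORC1 back when amino acids are scarce, both had lower levels, sesn1 at 92.3 and 40.6 CPM (2.28-fold, 1.19 to 4.26) and sesn3, just under the minimum mean level, at 66.6 and 10.1 CPM from 13 and 7 UMIs (6.57-fold, 2.44 to 19.5). The ribosomal protein gene rps6, whose product lies downstream of mTORC1, stood at 4814 and 7996 CPM (1.66-fold higher, 1.55 to 1.78). The highest ratio of the list, that of lamtor5, is among those counted as higher by 2-fold but rested on 1 cell, as did that of eif4ebp3l. The gene lamtor5, which encodes a subunit of the lysosomal anchor of mTORC1, had 347 of its 382 day 7 UMIs in 1 cell, and eif4ebp3l 209 of 267. Their log2 ratios of 2.70 and 1.28 were -0.13 and -0.66 without the richest cell, so neither was higher then. The list median was -0.53 without the richest cell of each gene. The kinase gene mtor itself had 2 UMIs on each day. Of the glutamine synthetase genes, glula had 0 and 2 UMIs and glulb stood at 154 and 99.9 CPM (0.65-fold, 0.418 to 1.03).

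Cytoskeleton and adhesion genes had 13 of 34 higher (median -0.10), with the actin-severing gene cfl1 at 185 and 634 CPM (3.44-fold higher, 2.44 to 4.97) and the actin-binding peptide gene tmsb4x at 4649.8 and 2410.3 CPM (1.93-fold lower, 1.78 to 2.09). Both were far higher in cluster 1, with cfl1 at 1044 and 1863 CPM and tmsb4x at 19929 and 13306. Iron and redox genes had 8 of 20 higher (median -0.11), with the ferritin gene fth1a at 492 and 236 CPM. Cell cycle genes had 4 of 9 higher (median -0.24), with the chromatin gene hmgn2 at 1512 and 599.7 CPM. The log2 ratio of hmgn2 was 0.44 in the 11 and 109 cells with few cardiomyocyte UMIs, where 1 UMI weighs more. Muscle energy genes had 7 of 19 higher (median -0.05). Ribosome biogenesis genes had 3 of 7 higher (median -0.09), apoptosis and p53 genes 1 of 5 (-0.49), lipid handling genes 0 of 4 (-0.33) and amino acid transporter and synthesis genes 1 of 4 (-0.68). The 4 interferon response genes were not spread, and in the list of natriuretic and cardiac stress genes, 3 of 5 members were higher (0.39). The nuclear RNA malat1, at 83907 and 93125 CPM, differed by 1.11-fold (1.09 to 1.13).

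**Figure D4:**
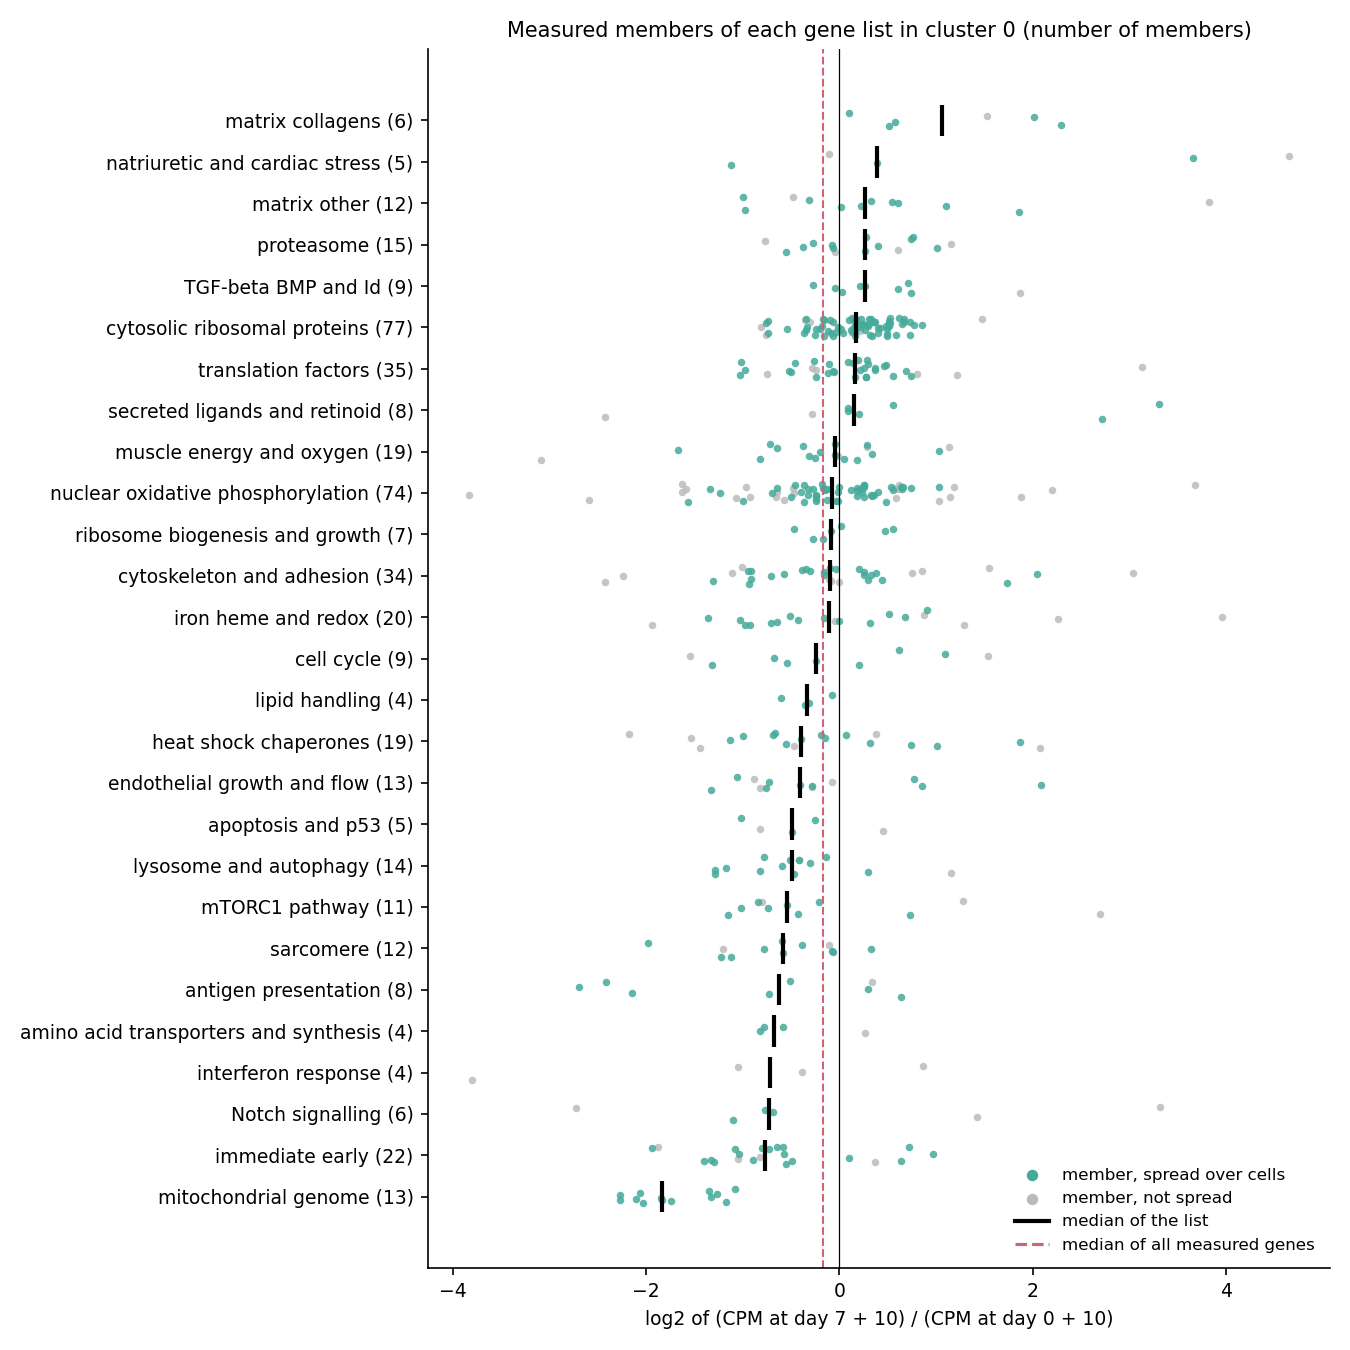
Log2 ratio of day 7 over day 0 (x axis, 10 CPM added to both levels) for the measured members of each of 27 gene lists in cluster 0, with the number of members in brackets. Green points are spread genes, grey points are not, black bars are list medians and the dashed red line is the median of all measured genes (-0.17). The collagen median lies highest (1.06) and the mitochondrial genome median lowest (-1.83).

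Values in cluster 0 were set beside those in all endothelial-type clusters. Clusters 0, 2, 3 and 6 together held 166 cells at day 0, of which 86 were in cluster 2, and 224 at day 7, of which 9 were in cluster 2 and 22 in cluster 3. These sets share the cluster 0 cells, so their values are only set side by side. For 5 spread named genes the log2 ratio differed by 1 or more between the sets, and they were picked out after their values were seen. The glutamine synthetase gene glulb had -1.94 in all 4 clusters and -0.58 in cluster 0, and its day 0 level in cluster 2 was 591 CPM. The p53 target gene ccng1 had -1.38 and -0.25, with 1327 CPM in cluster 2, and the ratio in cluster 0 was -1.09 without 1 day 7 cell that held 135 of 273 UMIs. The lactate dehydrogenase gene ldhba had -0.42 and 1.03 and the acyl-CoA binding protein gene dbi 0.85 and -0.60. For rbp4 the values were 0.87 and 3.31, with 63.7 CPM in cluster 2 at day 0. In contrast nppb had 4.37 and 3.66, mhc1uba -3.04 and -2.69 and aqp8a.1 -1.43 and -1.61.

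**Figure D5:**
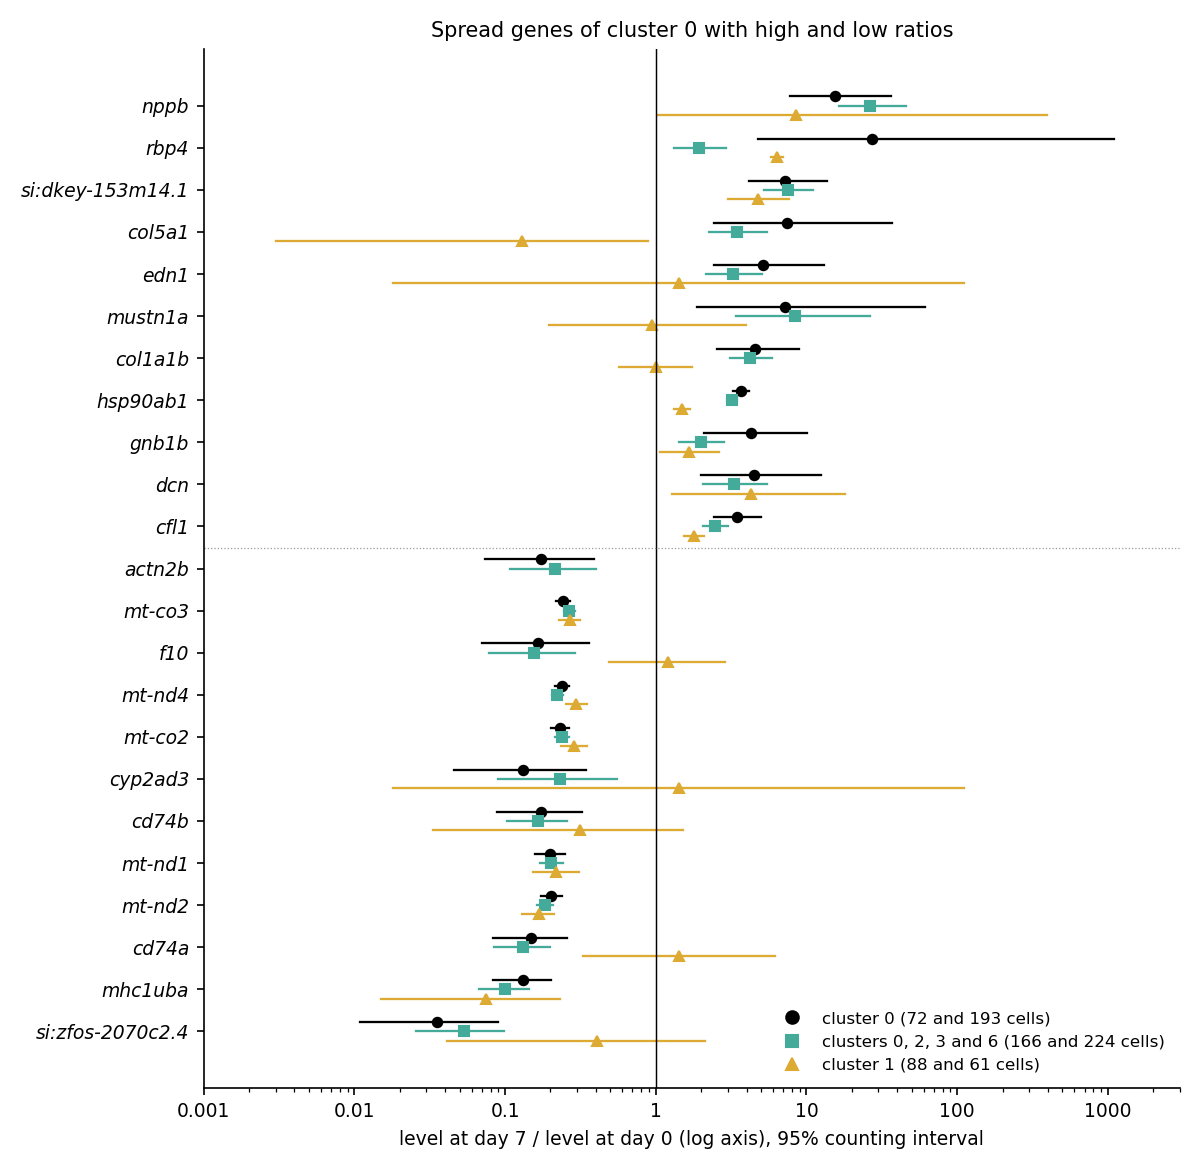
Level at day 7 divided by level at day 0 (log axis) with 95% counting intervals for spread genes with high (upper block) and low (lower block) log2 ratios in cluster 0. Black circles are cluster 0, green squares clusters 0, 2, 3 and 6 together and yellow triangles cluster 1. No triangle is drawn for actn2b, which had 0 UMIs at day 7 in cluster 1. The mitochondrial genes lie left of 1 in all 3 sets, while col5a1 lies right of 1 in cluster 0 and left of it in cluster 1.

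Some genes had like values in cluster 0 and cluster 1. The uncharacterised si:dkey-153m14.1 stood at 66.6 CPM (35.5 to 114) at day 0 and 479 CPM (429 to 534) at day 7 in cluster 0, 7.19-fold higher (4.15 to 13.7), at 86.4 and 410.4 in cluster 1 and at 63.4 and 428 in cluster 5. Its thinned shares of cells were 15.3% and 54.9% in cluster 0, 14.8% and 55.7% in cluster 1 and 16.7% and 50% in cluster 5. It was thus higher in the day 7 library in all 3 clusters, as the mitochondrial genes were lower in all 3. The markers aqp8a.1 and spock3 were lower at day 7 in all 3 as well. In cluster 1 they stood at 203 and 75.5 CPM and at 249 and 165, and in cluster 5 at 909 and 418 and at 2727 and 1049. The thinned share of mhc1uba was 28.4% and 3.28% in cluster 1 and 11.1% and 3.33% in cluster 5. The marker egfl7 was not lower there, at 23.3 and 28.3 CPM in cluster 1 and 42.3 and 48.6 in cluster 5. Levels of nppb, hsp90ab1 and cfl1 were also higher at day 7 in all 3, with nppb in cluster 1 at 3.32 and 28.3 CPM from 1 and 6 UMIs. By contrast col1a1b, higher at day 7 in cluster 0, stood in cluster 1 at 113 CPM on both days. For edn1, also higher in cluster 0, cluster 1 had 1 UMI on each day (3.32 and 4.72 CPM), too few to show a difference. The difference between the clusters was not tested.

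Of 141 measured genes past 4-fold, 122 were not spread, 74 of them higher and 48 lower. The extremes were slc35a1 (270 day 7 UMIs, 268 in 1 cell), casc3 (320, with 319 in 1 cell) and gopc (190, all in 1 cell) on the higher side. On the lower side were sdf4, glis2a and RFX7 (2 of 2), with 155 of 158, 129 of 130 and 102 of 102 day 0 UMIs in 1 cell. Without the richest cell their log2 ratios were 0.37, 0.20, 0.00, -0.68, -0.40 and 0.00. The globin gene ba1, at 4199 and 403 CPM, likewise came from 1 cell on each day, with 817 of 819 and 254 of 278 UMIs.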

How the data were processed

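Droplet libraries of zebrafish heart cells from day 0, day 3 and day 7 were used, with 1 library per day. Reads had been processed with Cell Ranger on genome build GRCz10, per the submitters' processing notes, with no version stated. The values deposited by the authors are natural log values of UMIs per 10000 in each cell plus 1. UMI counts were recovered from these deposited values and the deposited total count of each cell: each of the 497895 nonzero entries came out whole to a tolerance of 0.001 (largest distance 0.000479), and totals were equal in 754 of 754 cells. The deposited mitochondrial column is 0 throughout and was not used. No doublet caller was run. The labels state 272, 141 and 368 cells, against 272, 114 and 368 in the table.

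Counts were summed over the cells of a cluster and day and scaled to CPM. Log2 ratios had 10 CPM added, over genes with a mean of at least 40 CPM. Levels and ratios have exact 95% Poisson intervals and shares exact Clopper-Pearson intervals, covering counting error only. A count of 0 was kept as 0. With 1 library per day no test was made. Shares of cells used counts thinned to 2000 UMIs per cell, which all 72 and 193 cells reached. Named genes (126) were the 12 highest and 12 lowest spread genes, the 8 with the largest gain and the 8 with the largest loss in CPM, up to 4 per list, those past 4-fold that rested on few cells, and genes of the study's question. Outside this rule, cell type markers were named for the marker check, and b2m, col4a1, dll4, fosab, her4.1, junbb, kdrl, socs3b, tek, tpm4a and vwf were chosen after their values were seen. A named gene is not reported here. The members and lists were chosen with earlier results of these data known. Alternatives changed the pseudocount, the minimum level, the scale and the cells (15 in all). The code was tested on simulated data. Symbols were kept as deposited, and 9430 of 26320 matched the name table exactly. Genome positions and sequences were not analysed here. Python 3.11.15, numpy 2.4.6, pandas 2.3.3, SciPy 1.17.1 and matplotlib 3.10.9 were used.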

Additional observations from a re-analysis of the deposited data

Results flagged for a closer look

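Among spread named genes with a mean of at least 40 CPM in both cluster 0 and cluster 1, a pair passed 2-fold in opposite directions. Other named genes, such as hsp70.1, also went opposite ways in these clusters without meeting that rule. The keratin gene krt15 had a log2 ratio of -1.31 in cluster 0, with 574 CPM at day 0 and 226 at day 7, and 2.57 in cluster 1, with 372 and 2255 CPM from 112 and 478 UMIs. The glutathione peroxidase gene gpx1a, whose product removes peroxides, had -1.36 in cluster 0, with 220.4 and 79.7 CPM, and 1.65 in cluster 1, with 23.3 and 94.3 CPM from 7 and 20 UMIs. With 1 library per day, the difference between the clusters was not tested.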

How the results depend on the processing

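No paired analysis was possible because each day had 1 library. Against 163 higher and 203 lower genes and a median log2 ratio of -0.17, a pseudocount of 50 CPM gave 107 lower genes, a minimum level of 100 CPM gave 119 lower, and no minimum gave 606 higher, 696 lower and a median of 0.20. Leaving out the richest cell of each gene gave 56 higher and 95 lower, and cells under 2% cardiomyocyte markers (11 and 109 cells) gave 259 higher. With no minimum, 6 list medians turned: proteasome -0.03, amino acid genes 0.14, Notch 0.06, endothelial growth and flow 0.12, lipid handling 0.13 and apoptosis 0.19. In cells under 2% cardiomyocyte markers, other matrix genes had -0.01 and sarcomere genes 0.16, though sarcomere genes such as myl7 are among those markers. Among single genes there, eif4ebp3l had -0.71, eif4a1b 0.21, her6 4.32, ddit4 1.91, map1lc3a 0.39, hmgn2 0.44, ndufa1 0.94 and f10 1.46. The 11 day 0 cells of that subset include the globin-rich cell, which had 0.5625% of its UMIs from cardiomyocyte markers. Without the richest cell, lamtor5 had -0.13, eif4ebp3l -0.66 and ba1 1.14. In cells with no fibroblast marker UMI lamtor5 had -0.57. In clusters 0, 2, 3 and 6 together ldhba had -0.42, and at the coarser clustering -0.38. A pair of alternatives was chosen after seeing the data: without the globin-rich cells ba1 had 1.14, and with day 7 cells paired by depth lamtor5 had -1.78. Leaving out cells changes which cells are compared, and beyond that the cause was not tested. Of 68 named genes past 2-fold, 27 stayed past it in all 11 alternatives within cluster 0, and 56 kept their sign. The counts set the smallest step in a level, 5.13 CPM for 1 UMI at day 0 and 1.45 CPM at day 7 over all cluster 0 cells. The step is larger wherever cells were left out, most of all for the 11 day 0 cells.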

Other observations

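The 16 cells of cluster 0 at day 3, with 90611 UMIs and up to 31129 in 1 cell, were too few for the comparison, and only levels are given. They had nppb at 1788 CPM. Markers of lymphoid and neural cells were near 0 in cluster 0, with B cell markers at 0 UMIs on both days, T and natural killer cell markers at 25.6 and 20.3 CPM, and Schwann and neural markers at 0 and 5.79 CPM at day 0 and day 7. Neutrophil markers stood at 1969 and 1160.2 CPM, but only 2 of 11 had a UMI at day 0 and 1 at day 7. Thrombocyte markers stood at 15.4 and 68.1 CPM and epicardial markers at 6075 and 6043 CPM. The like epicardial sums held keratin genes that went both ways, with krt18 at 523 and 1546 CPM and krt94 at 2194 and 1162. The epicardial genes wt1a and wt1b had 0 UMIs on both days, and tcf21 had 0 and 3.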
